A study of Mus musculus with 4 samples.

Results

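The RNA levels of *Trp53*, the gene of the p53 protein, and of 9 of its well-known direct target genes were compared between WT R1 ESCs and *Zfp296* KO clone 2 ESCs (KO2). The members were chosen by name as well-known genes of the pathway, with earlier results of these data known. They were *Trp53*, *Mdm2*, *Ccng1*, *Trp53inp1*, *Sesn1*, *Phlda3*, *Bbc3*, *Bax*, *Aen* and *Eda2r*. Each of the 10 symbols matched 1 of the 48526 Ensembl gene rows of the count files. R1 is an established line of mouse embryonic stem cells (ESCs), kept here on gelatine in serum medium with LIF, the MEK inhibitor PD0325901 and the GSK3 inhibitor CHIR99021. KO2 is a single monoclonal R1 line that had received a plasmid with Cas9, a guide RNA to the first exon of *Zfp296* and a puromycin resistance gene, and that had gone through puromycin selection. Whether the WT cells had received a plasmid, and which of the guides made clone 2, is not given in the sources used here. There were 2 replicates in each group, from RNA isolated in duplicate, and nothing states that they came from separate cultures. The p-values therefore measure the spread between these samples, which may be technical. The question was whether the libraries labelled KO2 differed from those labelled WT in the RNAs that p53 induces after DNA damage. RNA came from the established clone, so a passing response while the clone was being made was not measured.

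In unstressed cells the p53 protein is kept low by MDM2, a ubiquitin ligase that marks it for degradation and that is itself a p53 target, so that both form a feedback loop. DNA breaks activate the kinases ATM and ATR, which release p53 from MDM2, mostly without a change in *Trp53* RNA, and p53 then binds its response elements and induces genes for cell cycle arrest, repair, stress adaptation and apoptosis. Mouse ESCs are known for a high amount of p53 protein and for a short G1 phase. A change in p53 activity can appear in the RNAs of the targets without one in *Trp53* RNA. The levels of these RNAs alone do not give p53's share in them.

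A p53 response element consists of a pair of half-sites of 10 bases, each built around a core in which a C and a G enclose a pair of bases that are A or T. The mm9 genome was searched for the p53 response element consensus without a spacer within 1000 bases on either side of the annotated start of each protein-coding gene, reading both strands at once because the consensus is its own reverse complement, and requiring both cores and at most 3 mismatches in the 20 bases. Such a match was present at 4 of the 10 members and in 3.84% of all 20856 windows of this length. With at most 1 mismatch it was present at *Ccng1* and in 0.22% of all windows. The 4 matches are shown because a response element is how p53 reaches a target gene. They are written in the direction of the gene, with the 20 bases of the match in capitals and 5 flanking bases on each side in lower case.
Ccng1: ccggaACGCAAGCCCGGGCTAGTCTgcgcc
Trp53: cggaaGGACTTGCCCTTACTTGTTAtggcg
Bbc3: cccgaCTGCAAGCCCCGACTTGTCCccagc
Aen: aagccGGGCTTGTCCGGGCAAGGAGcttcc
The match of *Ccng1* lies in an intron on chromosome 11 from 40568438 to 40568457, 356 bases after the annotated start, and that of *Trp53* lies upstream of the gene on chromosome 11 from 69393786 to 69393805. The match of *Bbc3* lies upstream of the gene on chromosome 7 from 16894835 to 16894854, and that of *Aen* in the untranslated part of an exon on chromosome 7 from 86040823 to 86040842. These matches describe letters and are not measured binding sites, and a member without one may have a site with a spacer or farther away.

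Counts on genes summed to between 2829914 and 7470907 per library, and both libraries labelled KO2 were deeper than both labelled WT, so depth and group cannot be told apart. *Zfp296*, the targeted gene, had 31 counts in each library labelled WT and 416 and 282 counts in those labelled KO2, which is 9.44 ± 2.99 and 45.2 ± 10.7 CPM (CPM, counts scaled to library size with TMM; SD, n = 2) and a log2 fold change of 2.31 (edgeR, standard error (SE) 0.28, adjusted p = 4.5e-05). A small insertion or deletion in the first exon need not lower the RNA, so this level does not check the label, and it goes in the direction opposite to a loss of the RNA. The Y-linked genes *Uty*, *Ddx3y* and *Eif2s3y* had at most 1 count in a library labelled WT and at least 723 in each library labelled KO2. WT and KO2 therefore stand here for the libraries so labelled, and each direction given below rests on these labels. The ESC markers were present in all libraries, with a sum over the 10 markers of 5841 to 6190 CPM. Of these only *Sox2* (10%, against 5.64% of all tested genes) passed the test in edgeR, lower in KO2. Of 8 markers of fibroblast feeder cells, 1 was tested, at 1.14 to 2.24 CPM, and *Postn*, *Dcn* and *Lum* were at 0 in every library. Of 11 matched markers of differentiated lineages, 4 were tested. Of these only *Krt8*, a keratin, was called (25%, against 5.64% of all tested genes). It was higher in KO2, with a mean of 2.16 CPM in WT and 13.7 CPM in KO2. The part of these differences in the results below was not tested.

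None of the 10 members passed the test between KO2 and WT, in which 5.64% of the 12883 tested genes were called (edgeR's quasi-likelihood test, adjusted p under 0.05 by the Benjamini-Hochberg method over all tested genes). All 10 members passed the filter on low counts. At an unadjusted p under 0.05 (edgeR) there was 1 member, *Eda2r*, or 10% of the members, against 19.4% of all tested genes. With DESeq2 none of the 10 had an adjusted p under 0.05, against 4.01% of all genes with an adjusted p. None had an unadjusted p under 0.05 in DESeq2 either, but the share of all genes at that threshold was not computed. The estimates lay above 0 for 6 members and below 0 for 4, against 51.4% above 0 of all tested genes, with a median log2 fold change of 0.09 against 0.01 over all tested genes. Their sizes ran from 0.04 to 0.42 and had a median of 0.18, against 0.27 over all tested genes, and 33.2% of all tested genes had a larger estimate than *Eda2r*, the member with the largest. In 3 members, *Mdm2*, *Trp53inp1* and *Eda2r*, the 2 groups did not overlap, against 48.8% of all tested genes. In bulk RNA, fewer cells with an RNA and less of it per cell cannot be told apart.

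A p that misses the threshold does not show that the groups are equal, and the intervals say how large a difference these libraries still allow. For 9 of the 10 members the 95% interval of the fold change lay wholly within 2-fold in either direction, compared to 56.4% of all tested genes. For 6 of them, *Mdm2*, *Ccng1*, *Trp53inp1*, *Sesn1*, *Bax* and *Aen*, it lay within 1.5-fold, compared to 30.5% of all tested genes. The standard errors of the members were 0.11 to 0.55 on the log2 scale with a median of 0.18, against 0.26 over all tested genes. In this fit the member that could not be bounded within 2-fold was *Bbc3*, which had the fewest counts. These bounds hold for edgeR with TMM. With normalization to the ERCC spike-ins the standard errors were larger, from 0.34 for *Eda2r* to 0.60 for *Bbc3*, with 0.35 for *Mdm2* and *Trp53*. In DESeq2 they were 0.25 for *Bax* and 0.28 for *Sesn1*, against 0.18 and 0.20 in edgeR. The bounds are looser in those fits.

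**Figure D1:**
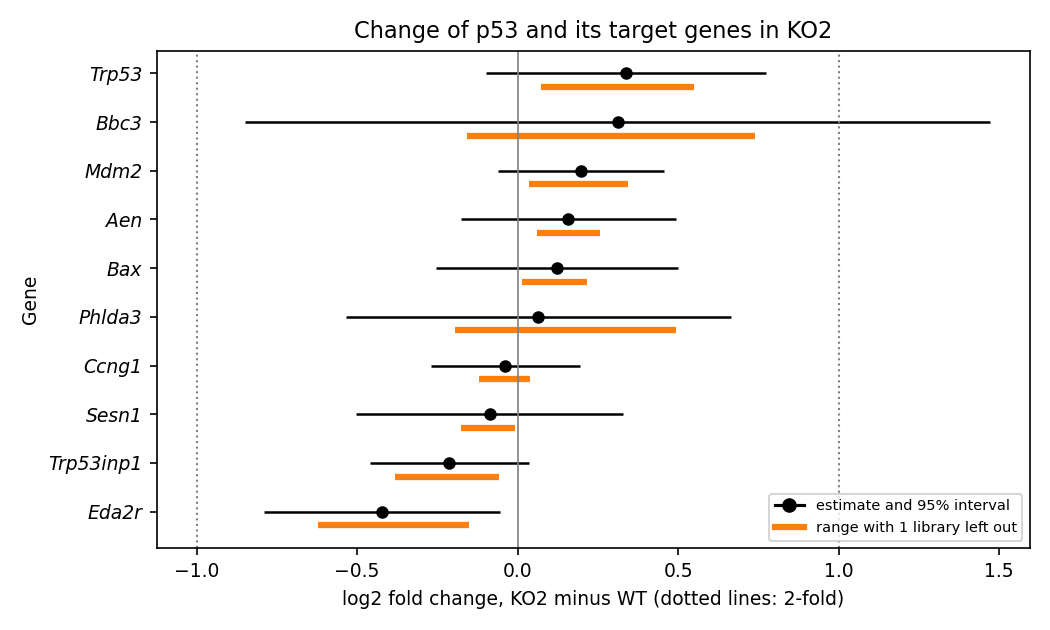
Log2 fold change between KO2 and WT (x axis, KO2 minus WT) for each gene (y axis), with black points and lines for the edgeR estimate and its 95% interval and orange bars for the range of estimates with 1 library left out at a time. All intervals except that of *Eda2r* cross 0, and all except that of *Bbc3* stay between the dotted lines at 2-fold.

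*Trp53* (ENSMUSG00000059552) spans bases 69393861 to 69405375 of chromosome 11 (mm9, plus strand). It had 85 and 165 counts in WT replicates 1 and 2 and 415 and 281 counts in KO2 replicates 1 and 2, which normalized to 31.7, 39.0, 52.6 and 37.6 CPM. KO2 replicate 1 was the highest library, while KO2 replicate 2 lay between the WT replicates, so the groups overlapped. The log2 fold change was 0.34 (edgeR, SE 0.21, 95% interval -0.10 to 0.77, adjusted p = 0.403), and with a library left out it ranged from 0.07 to 0.55. Of the 50-base windows in its exons, 4.8% occur at a further place in the genome, where HTSeq would set a read aside. The related genes *Trp63* and *Trp73*, named after their values had been seen, had no count in any library and 0.373 to 2.67 CPM, respectively. For *Trp63*, a count of 0 allows a level of up to 1.12 and 0.709 CPM in the WT libraries and 0.38 and 0.401 CPM in the KO2 libraries, and this limit of 3 counts covers counting error only.

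*Mdm2* (ENSMUSG00000020184) spans chromosome 10, bases 117125944 to 117147814 (minus strand), and encodes the ligase that limits p53 and is induced by it. It had 537 and 879 counts in the WT libraries and 1654 and 1931 counts in the KO2 libraries, which normalized to 200.1, 207.7, 209.7 and 258.1 CPM. Both KO2 libraries lay above both WT libraries, but KO2 replicate 1 was above WT replicate 2 by less than the WT replicates differed from each other. The log2 fold change was 0.20 (edgeR, SE 0.12, 95% interval -0.06 to 0.46, adjusted p = 0.414), which is a fold of 1.15 with an interval of 0.958 to 1.37. In this fit it was thus among the most tightly bounded of the members. The estimate depended on the library left out, at 0.04 without KO2 replicate 2 and 0.34 without KO2 replicate 1.

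**Figure D2:**
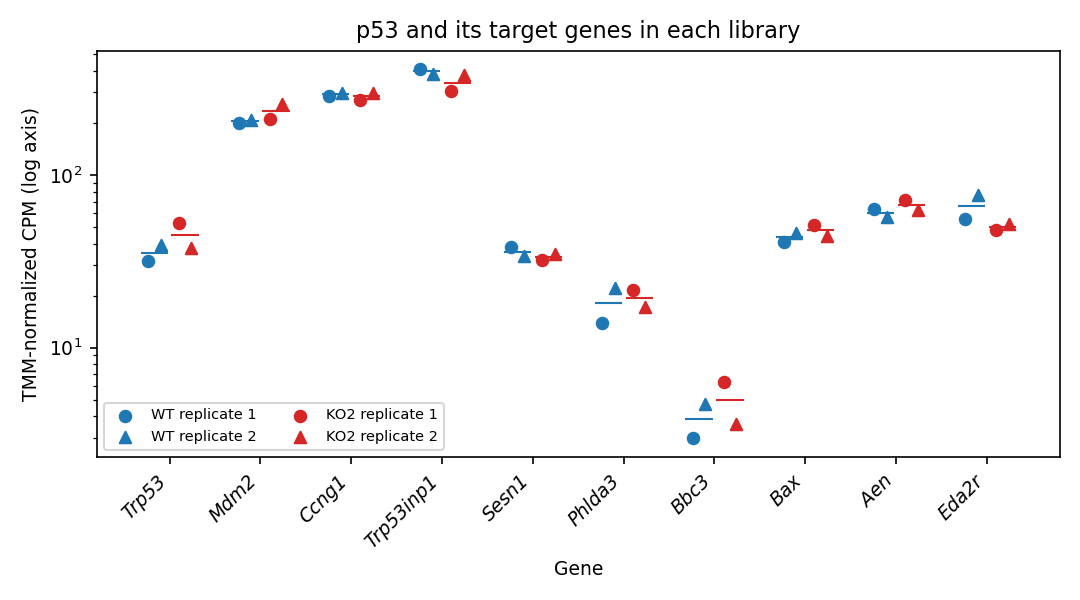
TMM-normalized CPM (y axis, log scale) of each gene (x axis) in each of the 4 libraries, with circles and triangles for replicates 1 and 2, blue for WT, red for KO2 and short lines for the group means. The groups overlap for 7 of the 10 genes, and the values run from 2.98 to 6.34 CPM for *Bbc3* up to 304.5 to 408.5 CPM for *Trp53inp1*.

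The next group holds targets that act on the cell cycle and on stress. *Ccng1* (ENSMUSG00000020326) spans chromosome 11, bases 40562054 to 40568813 (minus strand), and encodes cyclin G1, an atypical cyclin that recruits the phosphatase PP2A to MDM2, and carries the best of the response element matches shown above. It had 766 and 1263 counts in the WT libraries and 2128 and 2238 counts in the KO2 libraries, which normalized to 285.5, 298.4, 269.8 and 299.2 CPM. The KO2 libraries were the lowest and the highest of the 4, with both WT libraries between them. Its log2 fold change of -0.04 (edgeR, SE 0.11, adjusted p = 0.899) had the narrowest interval of the members, -0.27 to 0.20.

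*Trp53inp1* (ENSMUSG00000028211) spans chromosome 4, bases 11083578 to 11101526 (plus strand), and encodes a stress protein that promotes p53 activity and autophagy. It had 1096 and 1627 counts in the WT libraries and 2401 and 2839 counts in the KO2 libraries, which normalized to 408.5, 384.4, 304.5 and 379.5 CPM. Both KO2 libraries lay below both WT libraries, KO2 replicate 2 only narrowly so. The log2 fold change was -0.21 (edgeR, SE 0.12, 95% interval -0.46 to 0.03, adjusted p = 0.342). *Sesn1* (ENSMUSG00000038332) spans chromosome 10, bases 41530380 to 41628230 (plus strand), and encodes a sestrin, which restrains mTORC1 signalling. It had 102 and 143 counts in the WT libraries and 254 and 262 counts in the KO2 libraries, which normalized to 38.0, 33.8, 32.2 and 35.0 CPM, and the groups overlapped. Its log2 fold change was -0.09 (edgeR, SE 0.20, 95% interval -0.50 to 0.33, adjusted p = 0.869).

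The remaining 5 members act in cell death and survival. *Bax* (ENSMUSG00000003873) spans chromosome 7, bases 52717065 to 52722268 (minus strand), and encodes the effector that forms pores in the outer mitochondrial membrane. It had 110 and 195 counts in the WT libraries and 403 and 330 counts in the KO2 libraries, which normalized to 41.0, 46.1, 51.1 and 44.1 CPM, and KO2 replicate 2 lay between the WT replicates. The log2 fold change was 0.12 (edgeR, SE 0.18, 95% interval -0.25 to 0.50, adjusted p = 0.779). *Bbc3* (ENSMUSG00000002083) spans chromosome 7, bases 16894965 to 16903554 (plus strand), and encodes PUMA, a BH3-only protein that frees and activates BAX. It had only 8 and 20 counts in the WT libraries and 50 and 27 counts in the KO2 libraries, which normalized to 2.98, 4.73, 6.34 and 3.61 CPM, with KO2 replicate 2 again between the WT replicates. The fold of 1.24 had an interval of 0.555 to 2.77 (log2 fold change 0.31, edgeR, SE 0.55, adjusted p = 0.826), so that at this depth a doubling and an unchanged level both lay within the interval.

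*Aen* (ENSMUSG00000030609) spans chromosome 7, bases 86040740 to 86056095 (plus strand), and encodes a nuclease that enhances apoptosis. It had 171 and 241 counts in the WT libraries and 566 and 466 counts in the KO2 libraries, which normalized to 63.7, 57.0, 71.8 and 62.3 CPM, and the groups overlapped. The log2 fold change was 0.16 (edgeR, SE 0.16, 95% interval -0.18 to 0.49, adjusted p = 0.652). *Aen* had the largest share of exonic 50-base windows with a copy elsewhere in the genome, 18.3%, compared to 0% to 4.8% in the other members, and reads from such windows would be set aside by HTSeq. *Phlda3* (ENSMUSG00000041801) spans chromosome 1, bases 137662696 to 137665713 (plus strand), and encodes an inhibitor of AKT at the membrane. It had 37 and 94 counts in the WT libraries and 171 and 128 counts in the KO2 libraries, which normalized to 13.8, 22.2, 21.7 and 17.1 CPM, so that the WT replicates alone spanned both KO2 replicates. Its log2 fold change was 0.06 (edgeR, SE 0.29, 95% interval -0.54 to 0.67, adjusted p = 0.935).

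*Eda2r* (ENSMUSG00000034457) spans chromosome X, bases 94529179 to 94572555 (minus strand), and encodes a receptor of the tumour necrosis factor family that binds ectodysplasin A2. It had 148 and 324 counts in the WT libraries and 377 and 386 counts in the KO2 libraries, which normalized to 55.2, 76.6, 47.8 and 51.6 CPM. Both KO2 libraries lay below both WT libraries, and the WT replicates differed from each other by more than WT replicate 1 differed from either KO2 replicate. The fold was 0.747 with a 95% interval of 0.578 to 0.963 (log2 fold change -0.42, SE 0.18), but the adjusted p over all tested genes was 0.188 with edgeR and 0.465 with DESeq2. Without WT replicate 2 the log2 fold change was -0.15, the smallest in size of the alternatives, and without WT replicate 1 it was -0.62. *Eda2r* was the only member on chromosome X. The part of the Y-linked difference between the groups in its estimate was not tested.

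Levels differed more between the members than between the groups. Per kilobase of annotated exon, and as the mean of the 4 libraries, *Ccng1* was the highest at 82.1 CPM per kb, followed by *Trp53inp1* at 57.0, *Mdm2* at 43.2 and *Bax* at 34.0 CPM per kb. These 4 lay at or above the 84th percentile of the 12067 tested genes with a length, whose median was 7.3 CPM per kb. *Phlda3*, *Aen*, *Sesn1*, *Trp53* and *Eda2r* followed at 12.0, 11.2, 10.4, 9.94 and 9.81 CPM per kb, and *Bbc3* was the lowest at 2.2 CPM per kb. The ranges over the 4 libraries overlapped between *Trp53inp1* and *Mdm2* and between all neighbours from *Phlda3* to *Eda2r*, so the order within these is not set by the data, while the other neighbours did not overlap. These levels show that the targets had RNA in both groups, and they say nothing of p53's share in it.

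Of 40 further p53 targets, listed by name, 38 matched a gene and 35 were tested, and 2 of them (5.71%) passed, close to the 5.64% of all tested genes. *Tnfrsf10b*, a receptor for the death ligand TRAIL, was higher in KO2, at 7.08 and 6.38 CPM in WT and 19.1 and 15.2 CPM in KO2, with a log2 fold change of 1.37 (edgeR, SE 0.36, adjusted p = 0.0315). *Zmat3*, an RNA-binding zinc finger protein, was lower, at 70.8 and 58.4 CPM in WT and 32.6 and 34.2 CPM in KO2, with a log2 fold change of -0.94 (edgeR, SE 0.18, adjusted p = 0.00301). These targets thus moved in opposite directions. The call of *Tnfrsf10b* was lost in edgeR without WT replicate 1, without WT replicate 2 and without KO2 replicate 1, at adjusted p = 0.0945, 0.125 and 0.149, and in DESeq2, at adjusted p = 0.0871. The call of *Zmat3* was lost without WT replicate 1, at adjusted p = 0.0582 (edgeR). Normalization to the ERCC spike-ins ended both calls, at adjusted p = 0.112 for *Tnfrsf10b* and 0.298 for *Zmat3* (edgeR), and so did testing without a filter, at adjusted p = 0.179 and 0.132 (edgeR), respectively. The log2 fold changes were then 1.43 and 1.40 for *Tnfrsf10b* and -0.85 and -0.91 for *Zmat3*. With 1 library left out at a time, the log2 fold change of *Tnfrsf10b* ranged from 1.195 to 1.516. That of *Zmat3* ranged from -1.083 to -0.8049. These fits leave 1 library in a group, so their numbers of calls are not compared with the share over all tested genes.

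At an unadjusted p under 0.05 there were 14 of these 35 targets (40%), 8 higher and 6 lower in KO2, against 19.4% of all tested genes. The groups did not overlap in 25 of the 35 (71.4%), against 48.8% of all tested genes, and the median log2 fold change of the list was 0.07. *Cdkn1a*, the inhibitor of cyclin-dependent kinases p21, had 10.8, 14.9, 16.2 and 14.0 CPM in the libraries in the same order, with a log2 fold change of 0.20 (edgeR, SE 0.31, adjusted p = 0.792), and the groups overlapped. *Pmaip1*, which encodes the BH3-only protein NOXA, had 16.0, 19.6, 15.5 and 13.9 CPM and a log2 fold change of -0.30 (edgeR, SE 0.29, adjusted p = 0.633). The most abundant targets that did not pass were *Ckap2*, *Tigar* (listed in the annotation as 9630033F20Rik) and *Rps27l*, with log2 fold changes of -0.26, 0.06 and 0.17. *Gdf15*, named after its values had been seen, had 11.55 and 12.29 CPM in WT and 4.95 and 4.41 CPM in KO2. Its log2 fold change was -1.35 (edgeR, SE 0.40, adjusted p = 0.0571). With RLE normalization and with at least 10 counts in every sample it was called, at adjusted p = 0.0493 and 0.0349 (edgeR). *Fas* and *Dram1*, which had no WT count, and *Perp* were below the filter.

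Of 30 regulators of p53, 29 matched and 27 were tested, and 1 (3.7%) passed, against 5.64% of all tested genes. *Trim24*, a ubiquitin ligase that can target p53, was lower in KO2, at 334.3 and 332.0 CPM in WT and 193.9 and 230.6 CPM in KO2, with a log2 fold change of -0.65 (edgeR, SE 0.12, adjusted p = 0.00209). It passed the threshold in each of the fits with 1 library left out, but not with ERCC normalization or without a filter, at adjusted p = 0.775 and 0.138 (edgeR), where its log2 fold changes were -0.54 and -0.62. *Mdm4*, the partner of MDM2 that masks the p53 activation domain, had 345.5, 286.9, 315.6 and 321.3 CPM and a log2 fold change of 0.01 (edgeR, SE 0.12, adjusted p = 0.968). *Usp7*, which removes ubiquitin from MDM2 and p53, and *Atm*, the kinase activated by DNA breaks, had log2 fold changes of -0.23 and -0.32 (adjusted p = 0.215 and 0.157, edgeR). The median over the list was 0.08, and 5 genes (18.5%) had an unadjusted p under 0.05, 2 higher and 3 lower, against 19.4% of all tested genes. Without KO2 replicate 2, *Atm* was called as well (adjusted p = 0.0481, edgeR).

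All 25 genes of double-strand break repair matched and were tested, and none passed (edgeR), against 5.64% of all tested genes, while 6 (24%) had an unadjusted p under 0.05, 3 higher and 3 lower, against 19.4%. DESeq2, which called 4.01% of the genes to which it gave an adjusted p, called 1 of them, *Parp1*, the sensor of strand breaks that makes poly(ADP-ribose), with a log2 fold change of -0.29 in edgeR (adjusted p = 0.0997) and an adjusted p of 0.0452 in DESeq2. *Rad50*, a subunit of the complex that binds broken ends, was named after the values had been seen. It was called in edgeR without KO2 replicate 2, at a log2 fold change of -0.53 (adjusted p = 0.0328), and had an adjusted p of 0.0716 with all libraries. *Brca2* and *Xrcc5*, which act in homologous recombination and end joining, had log2 fold changes of 0.25 and 0.001 (adjusted p = 0.197 and 0.997, edgeR). The median log2 fold change of this list was 0.09.

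Apart from *Bax*, *Bbc3* and *Pmaip1*, the list of the Bcl2 family held 15 genes, of which 14 matched and 11 were tested, and none passed (edgeR; DESeq2 also called none), against 5.64% of all tested genes in edgeR. At an unadjusted p under 0.05 there was 1 (9.09%, against 19.4% of all tested genes), *Bid*, a BH3-only protein cleaved by caspases, at 47.0 and 44.0 CPM in WT and 31.2 and 35.4 CPM in KO2, with a log2 fold change of -0.44 (adjusted p = 0.196, edgeR). *Mcl1*, the most abundant survival factor of the list, and *Bcl2l13* had log2 fold changes of -0.21 and 0.26 (adjusted p = 0.295 and 0.368, edgeR). Estimates were above 0 for 9 of the 11, against 51.4% of all tested genes, and their median was 0.32, against 0.01 over all tested genes. Of the 11, 8 had a mean under 20 CPM over the 4 libraries, and the part of low counts in these estimates was not tested. *Bcl2* itself had no count in WT and was below the filter.

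**Figure D3:**
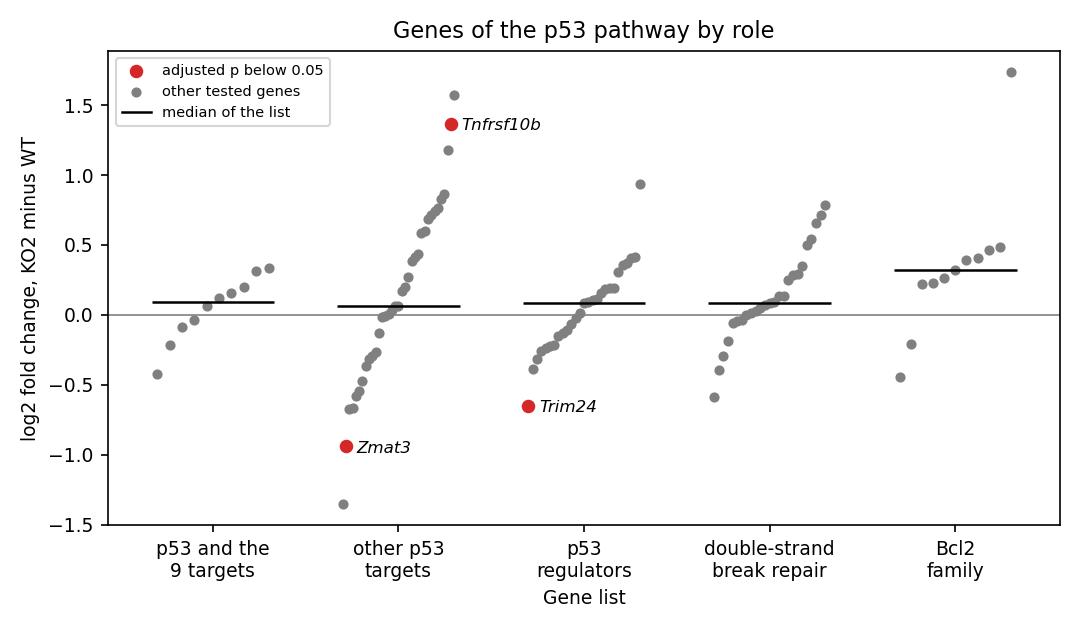
Log2 fold change between KO2 and WT (y axis) of each tested gene in 5 gene lists (x axis), with red points for genes with an adjusted p under 0.05 in edgeR, grey points for the others and black lines for the list medians. Red points are *Tnfrsf10b* at 1.37, *Zmat3* at -0.94 and *Trim24* at -0.65, and the 10 members on the left span -0.42 to 0.34.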

How the data were processed

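The authors depleted ribosomal RNA, made strand-specific libraries, mapped the reads to mm9 with hisat2 and used HTSeq for counting. They deposited a raw count per gene for each replicate, neither normalized nor pooled. Versions, annotation and strand setting are not given in the sources used here. Rows of 92 ERCC spike-ins and 5 HTSeq summary rows were left out of library sizes and tests, and all rows that name no gene held 52.9% to 58.8% of each file. HTSeq sets aside reads that map to several places, which lowers genes with copies. Symbols, coordinates and exon lengths came from GENCODE vM1 on NCBIM37 (mm9), which covered 32782 of the 48526 genes.

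Genes were filtered with filterByExpr (minimum count 10, minimum total 15), normalized by TMM (factors 0.952 to 1.06) and tested with glmQLFit (legacy=FALSE) and glmQLFTest in edgeR 4.0.16 (R 4.3.3) in a model of condition alone. The Benjamini-Hochberg method was applied over all 12883 genes tested, and an adjusted p under 0.05 was the threshold. Standard errors are the log2 fold change divided by the square root of F, and 95% intervals use the moderated degrees of freedom. The biological coefficient of variation was 0.15. The chi-square between replicates was 5.92 per gene in WT and 21.3 in KO2, above sampling noise. The fits were tested on simulated counts. Alternatives were RLE and ERCC normalization, removal of Y-linked, mitochondrial and small RNA genes, other filters, DESeq2 1.42.0, a block for the replicate number, the older quasi-likelihood method, and leaving out each replicate.

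The members and gene lists were chosen with earlier results of these data known. The named genes were all members, *Zfp296*, each list gene past the threshold, up to 3 of the most abundant others per list, *Cdkn1a*, *Pmaip1* and *Mdm4*, and genes whose exons overlap a member, of which the annotation held none.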

Additional observations from a re-analysis of the deposited data

How the results depend on the processing

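No member passed the threshold in any of the 12 alternatives, and 6 of the 10 kept their direction in each of them. The signs that changed, all of uncalled genes, were those of *Ccng1* (0.0607 with ERCC normalization and 0.0381 without KO2 replicate 1, where a replicate left out gave -0.12 to 0.0381), *Sesn1* (0.00131 with ERCC normalization), *Bbc3* (-0.16 without KO2 replicate 1, in a range up to 0.74), *Phlda3* (-0.19 without WT replicate 1 and -0.13 without KO2 replicate 1, in a range up to 0.49) and *Mdm4* (-0.12 without WT replicate 2 and -0.002 without KO2 replicate 2). ERCC normalization raised the median of all tested genes from 0.0125 to 0.0902, and *Ccng1* and *Sesn1* lay below that median with either normalization. The median log2 fold change of the members ranged from -0.004, without KO2 replicate 1, to 0.15, with ERCC normalization. *Bbc3* was not tested with at least 10 counts in every sample. The 727 genes called became 163 with ERCC normalization, 61 without a filter, 454 with DESeq2 and 270 to 691 with a replicate left out. The 2 called other p53 targets became 0 with ERCC normalization and 0 without a filter, 1 with DESeq2 and 0 to 5 with a replicate left out, with 0 without WT replicate 1 and 5 without KO2 replicate 2. The 1 called regulator became 0 with ERCC normalization and 0 without a filter and was 1 to 2 with a replicate left out. Of the repair genes, 1 was called with DESeq2 and 0 to 1 with a replicate left out. The cause of these moves was not tested. With the replicate block, 950 genes, 4 other p53 targets, 1 regulator, 1 repair gene (*Rad50*, adjusted p = 0.0429, edgeR) and 0 members were called. The deviations of same-numbered WT and KO2 replicates from their group means correlated at -0.0066 across genes, so the samples share only a number. With 2 libraries per group and both KO2 libraries deeper, group and depth cannot be separated, and genes at the level of *Bbc3* are bounded only loosely.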
